A study of Homo sapiens with 14 samples.

Results

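The 10 genes described here, AGO1, AGO2, AGO3, AGO4, TNRC6A, TNRC6B, TNRC6C, DICER1, DROSHA and DGCR8, encode the core proteins that make microRNAs and act with them. They were taken by symbol from the deposited count table, which lists 58434 symbols, and each of the 10 was counted in all 14 libraries. The question was how the mRNAs of this pathway sit on polysomes, and what happens to them when the initiation factor DAP5 is silenced.

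MicroRNAs are short RNAs that guide repression of mRNAs. In the nucleus the Microprocessor, made of the RNase III enzyme DROSHA and its double-stranded RNA binding partner DGCR8, cuts hairpins out of primary transcripts, and in the cytoplasm DICER1 cuts these hairpins to duplexes. A strand of the duplex is loaded into an Argonaute protein (AGO1 to AGO4, of which AGO2 is the family's main slicing enzyme), and the TNRC6 proteins (TNRC6A, TNRC6B and TNRC6C, also called GW182 proteins) bind Argonaute and recruit deadenylases to the target mRNA.

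The cells were MDA-MB-231, an established human breast cancer line, made stable with a doxycycline-inducible TRIPZ lentiviral short hairpin RNA that was either non-silencing (MB-231-shNSi) or directed at DAP5 (MB-231-shDAP5). Both lines received 1 µg/ml doxycycline for 6 days, so the shNSi cells had the drug and a hairpin as well, and both were treated with cycloheximide at harvest. TRIPZ hairpins are embedded in a microRNA backbone. Their maturation and loading use proteins encoded by genes described here (DROSHA, DGCR8, DICER1 and the Argonautes). Total mRNA, light polysome mRNA (poorly translated) and heavy polysome mRNA (well translated) were sequenced from 2 cultures of each line, and a moderate polysome pool was sequenced from the 2 shNSi cultures. The labels do not say whether each line was a single clone. The shDAP5 light libraries carry the code that the shNSi cultures use for the moderate pool and were taken as light by their title, and the shDAP5 total libraries, titled as total polysome, were taken as total mRNA.

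Each library held between 25899838 and 30795910 counts, and the members had between 158 and 4880 counts in a library. Levels are given as CPM (library-scaled counts, with TMM factors), changes are log2 fold changes of shDAP5 over shNSi with their standard error (SE), and a gene was called at an adjusted p under 0.05 in edgeR's quasi-likelihood test, adjusted by Benjamini-Hochberg over the genes of each fit. The smallest two-sided p of an exact permutation test with 2 cultures a group is 0.333, so each call draws on the spread of many genes. EIF4G2, which encodes DAP5, stood at 1392 and 1359 CPM in the shNSi total libraries and at 526 and 730 CPM in those of the shDAP5 cultures (log2 fold change −1.11, adjusted p = 0.0172). In heavy (−0.86, adjusted p = 0.0691) and light polysome mRNA (−1.33, adjusted p = 0.430) it was not called, and its values did not overlap between the lines there. The line's markers were present (VIM between 798 and 14741 CPM), and of 5 markers that the line was listed to lack, PGR was at 0 in every library, ESR1 had between 2 and 16 counts and CDH1 between 0 and 8, whereas EPCAM (2.91 to 6.11 CPM) and ERBB3 (3.28 to 6.67 CPM) were counted in every library at low levels. The summed level of 8 markers of immune, endothelial and stromal cells lay between 9.20 and 89.4 CPM in shNSi and between 9.58 and 22.3 CPM in shDAP5 libraries, with MS4A1 at 0 and COL1A1 holding between 7.73 and 84.6 CPM. In such bulk libraries fewer cells with an mRNA and less of it in each cell cannot be told apart.

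The transcripts of the members are long, and several carry features in the 5′ part of the mRNA that bear on initiation. In the GENCODE v29 annotation of GRCh38, used here for gene models only because the submitters' notes name hg19, the principal coding sequences ran from 2319 nucleotides in DGCR8 to 5886 in TNRC6A, against a median of 1275 over 19669 genes. The Argonaute coding sequences were nearly equal in length, at 2571 nucleotides for AGO1, 2577 for AGO2, 2580 for AGO3 and 2583 for AGO4. DROSHA had 4122, TNRC6B 5169, TNRC6C 5178 and DICER1 5766. Upstream ATG triplets were found in the 5′ untranslated region of 8 of the 10 transcripts, with 6 each in DICER1 and DGCR8 and none in AGO2 and AGO4, and 48.7% of all genes had at least 1. The longest 3′ untranslated region was that of AGO3 with 16755 nucleotides and the shortest that of DROSHA with 930. AGO4, AGO1 and AGO3 follow each other on the plus strand of chromosome 1, at 35808172 to 35857890, 35869808 to 35930528 and 35930718 to 36072500. DICER1 lies on the minus strand of chromosome 14 at 95086228 to 95158010 and DROSHA on the minus strand of chromosome 5 at 31400497 to 31532196. TNRC6A (chromosome 16, 24610209 to 24827632), TNRC6B (chromosome 22, 40044817 to 40335808), TNRC6C (chromosome 17, 77959240 to 78108835) and DGCR8 (chromosome 22, 20080232 to 20111877) are on the plus strand.

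The start codon contexts of 9 members are shown because the study is about initiation, and that of AGO2 is not reported here. Each run has the 15 bases before the start codon, the ATG in capitals and the 9 bases after it, from the principal GENCODE v29 transcript.
DROSHA: tccaggcggaacatcATGatgcaggga
DGCR8: ttaagcgcttttaatATGgagacagat
DICER1: agaaacactggatgaATGaaaagccct
AGO1: gcacgggtatatgggATGgaagcggga
AGO3: cccccagctccatgaATGgaaatcggc
AGO4: gcccccgccgccgccATGgaggcgctg
TNRC6A: gtgcactttacacacATGagagaattg
TNRC6B: gcactgctgcactttATGagagagaag
TNRC6C: tcagagaacagtagcATGgctacaggg
Of these 9, the purine at position −3 that favours start codon recognition was present in 5 (AGO1, AGO4, TNRC6C, DROSHA and DGCR8), against 85.1% of 18558 genes, and the G at position 4 was present in 5, against 50.6%. DICER1, TNRC6A and TNRC6B had neither base. AGO3 had the G but not the purine, and DROSHA the purine but not the G.

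DGCR8 and DICER1 also hold microRNA genes. The DGCR8 mRNA has hairpins in its exons, and cleavage of this mRNA by the Microprocessor is a known feedback on DGCR8. The mature sequences are from RefSeq (GRCh38.p14), with the seed, bases 2 to 8, in capitals.
hsa-miR-3618: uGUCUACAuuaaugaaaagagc
hsa-miR-1306-5p: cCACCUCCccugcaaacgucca
hsa-miR-1306-3p: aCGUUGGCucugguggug
hsa-miR-3173-5p: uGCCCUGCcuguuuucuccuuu
hsa-miR-3173-3p: aAAGGAGGaaauaggcaggcca
The miR-3618 sequence (chr22:20085797-20085818) lies in an exon of the principal DGCR8 transcript outside the coding sequence, and those of miR-1306-5p (chr22:20086072-20086093) and miR-1306-3p (chr22:20086112-20086129) lie within the coding sequence. The 2 arms of miR-3173 (chr14:95137961-95137982 and chr14:95137923-95137944, minus strand) lie in an intron of DICER1. No seed is shared among the 5. The count of DGCR8 is a count of host mRNA reads, and mature microRNAs were not analysed here.

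In total mRNA of the control line, scaled per kilobase of coding sequence, AGO2 had the highest level at 33.2 ± 11.5 CPM per kilobase (SD, n = 2), followed by DROSHA at 22.2 ± 1.68, DGCR8 at 16.4 ± 2.36 and AGO1 at 9.51 ± 1.31. The 2 cultures of each of these 4 genes did not overlap with those of its neighbour in the order. The next were TNRC6A (6.12 ± 1.40), AGO3 (5.57 ± 1.00), DICER1 (5.34 ± 1.41), AGO4 (3.68 ± 1.16), TNRC6B (3.07 ± 0.676) and TNRC6C (2.82 ± 0.476), and each of these overlapped with the gene next to it in this order. Per kilobase of whole transcript the order was different, with DROSHA first at 17.9 ± 1.36, DGCR8 at 8.42 ± 1.21 and AGO2 at 5.86 ± 2.03 CPM per kilobase, since the untranslated regions differ in length. AGO2 had the largest share of the summed Argonaute level on either scale. Per kilobase of coding sequence its share was 66.1% and 60.6% in the shNSi total libraries and 65.2% and 64.6% in those of shDAP5. In light polysomes it was 61.5% and 54.2% in shNSi and 55.0% and 55.6% in shDAP5, and in heavy polysomes 66.7% in both shNSi libraries and 66.1% and 61.6% in shDAP5. AGO4 went the other way, with 11.3% and 9.10% of the Argonaute level in shNSi light and 5.07% and 3.52% in shNSi heavy polysomes.

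**Figure D1:**
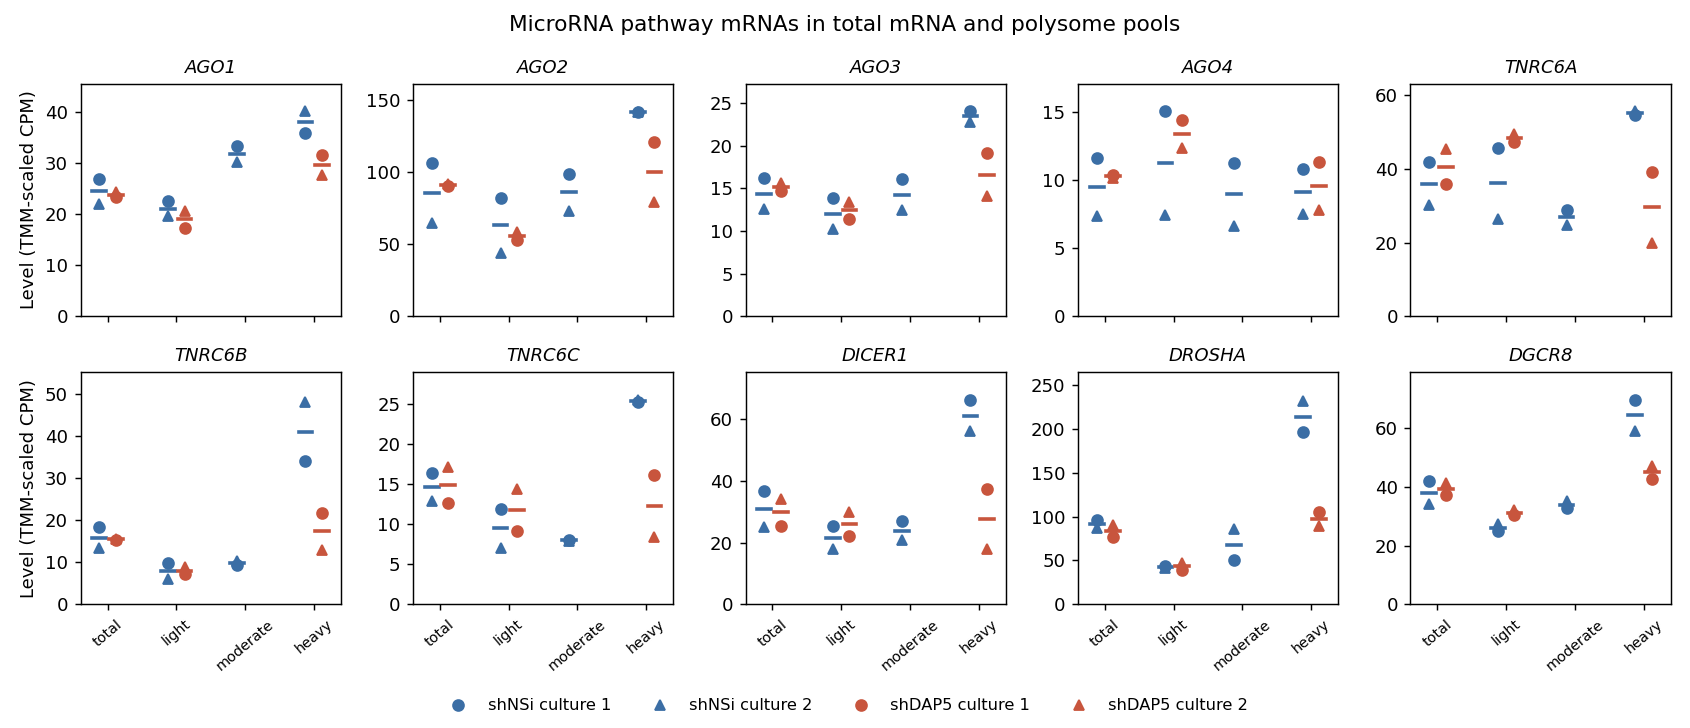
Level of each of the 10 mRNAs in CPM (vertical axis, a linear scale from 0 that differs between panels) in total, light, moderate and heavy libraries. Circles and triangles are cultures 1 and 2, blue is shNSi, red is shDAP5 and bars are means of 2 cultures. Total and light values of the lines lie close together, whereas in heavy polysomes the shDAP5 values lie below those of shNSi in every panel but AGO4.

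None of the 10 mRNAs was called in total mRNA, where 0.354% of 14992 genes were called (12% at an unadjusted p under 0.05, and none of the members). DESeq2 and limma also called 0 members. The changes ran from −0.11 to 0.20, with a median of 0.06 against 0.01 for all genes. DROSHA stood at 96.3 and 86.5 CPM in the shNSi cultures and at 76.4 and 90.6 CPM in the shDAP5 cultures. DICER1 was at 36.5 and 25.1 CPM in shNSi and at 25.5 and 34.0 CPM in shDAP5. The lines overlapped for both enzymes. TNRC6B was at 18.3 and 13.4 CPM in shNSi and at 15.3 and 15.5 CPM in shDAP5, which also overlapped. AGO2 differed more between the shNSi cultures (106 and 64.6 CPM) than between the lines (90.5 and 91.5 CPM in shDAP5).

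In heavy polysome mRNA, TNRC6B, DICER1, DROSHA and TNRC6C were lower in shDAP5 than in shNSi cultures, by close to 1 on the log2 scale. The Argonaute mRNAs did not pass the test. These 4 called members of 10 stand against 30.9% of 14270 genes called, of which those called lower were 16.7% of genes tested. The median over the 10 was −0.53 against 0.09 for all genes tested. With the shNSi moderate pool as control 1 of 10 was below 0 (median 0.23). No member was called with that pool (0.344% of all genes) or with heavy and moderate summed (2.77%). With a culture left out, the changes ranged from −1.64 to −0.56 for DICER1 and −1.53 to −0.76 for TNRC6B. They ranged from −1.46 to −0.50 for TNRC6C and −1.16 to −0.87 for DROSHA. All 4 called members have coding sequences above 4000 and up to 6000 nucleotides, a class of 561 genes of which 50.1% were called lower (median −0.85), and with offsets for coding length none of the 4 was called. In 9 of 10 members the higher shDAP5 culture was under the lower shNSi culture, which was so for 37% of all genes (66.1% did not overlap in either direction). Of the 8 markers of other cell types 3 could be tested, and the stromal gene COL1A1 moved with the members, with a log2 fold change of −1.67 in heavy mRNA (adjusted p = 6.37e-05). Its ratio of heavy to total mRNA changed by −1.10 (adjusted p = 0.0325) and its ratio of heavy to light mRNA by −1.44 (adjusted p = 0.0415). CD14 and PDGFRB were not called. The fall in heavy mRNA was not particular to such genes. Of 5 markers that the line is listed to have, 3 were also called lower there, with a median of −1.35. Both lines had been selected with puromycin and sorted for the red fluorescent protein of the vector. The part of stromal or other cells in the members' changes was not tested.

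Among the processing enzymes, DROSHA had 197 and 231 CPM in the heavy polysomes of the shNSi cultures and 105 and 89.0 CPM in those of the shDAP5 cultures. All 4 values of DROSHA were well apart between the lines, and its log2 fold change was −0.96 (SE 0.34, adjusted p = 0.0214). DICER1 had 65.9 and 56.0 CPM in shNSi and 37.3 and 17.8 CPM in shDAP5, with a log2 fold change of −0.97 (SE 0.33, adjusted p = 0.0181). The shDAP5 cultures differed for DICER1 by a wide margin, culture 2 being the lower, but both lay below the control. DGCR8, the partner of DROSHA in the Microprocessor, had 69.7 and 59.1 CPM in shNSi and 42.7 and 47.1 CPM in shDAP5. Its cultures did not overlap either, and its log2 fold change of −0.34 did not pass the test (adjusted p = 0.450).

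Among the TNRC6 mRNAs, TNRC6B had 34.0 and 48.1 CPM in shNSi and 21.8 and 12.9 CPM in shDAP5, a log2 fold change of −1.06 (SE 0.34, adjusted p = 0.0106). TNRC6C had 25.2 and 25.4 CPM in shNSi and 16.1 and 8.38 CPM in shDAP5 (log2 fold change −0.87, SE 0.35, adjusted p = 0.0426). TNRC6A had 54.8 and 55.6 CPM in shNSi and 39.2 and 19.95 CPM in shDAP5 (−0.72, SE 0.33, adjusted p = 0.0827). The shNSi cultures of TNRC6A and TNRC6C were nearly equal, and shDAP5 culture 2 was the lowest library for all 3 genes.

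Among the Argonautes, AGO2 had 142 and 141 CPM in shNSi heavy polysomes and 121 and 79.5 CPM in shDAP5 (−0.32, adjusted p = 0.480). AGO1 had 36.0 and 40.3 CPM in shNSi and 31.6 and 27.7 CPM in shDAP5 (−0.18, adjusted p = 0.709). AGO3 had 24.1 and 22.8 CPM in shNSi and 19.1 and 14.05 CPM in shDAP5 (−0.32, adjusted p = 0.492). For these 3 genes the cultures of the lines did not overlap. AGO4, at 10.8 and 7.49 CPM in shNSi and 11.3 and 7.80 CPM in shDAP5, overlapped (0.24, adjusted p = 0.648).

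shDAP5 culture 2 lay below culture 1 in heavy polysomes for every member except DGCR8, and the heavy calls rested on it. Without this culture no member was called, and 0.0134% of all genes were, although 9 of the 10 changes stayed below 0 (median −0.39). Without shNSi culture 1 there were 2 calls (23.7% of all genes), without shNSi culture 2 there was 1 (14.1%), and without shDAP5 culture 1 there were 4 (19.9%).

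**Figure D2:**
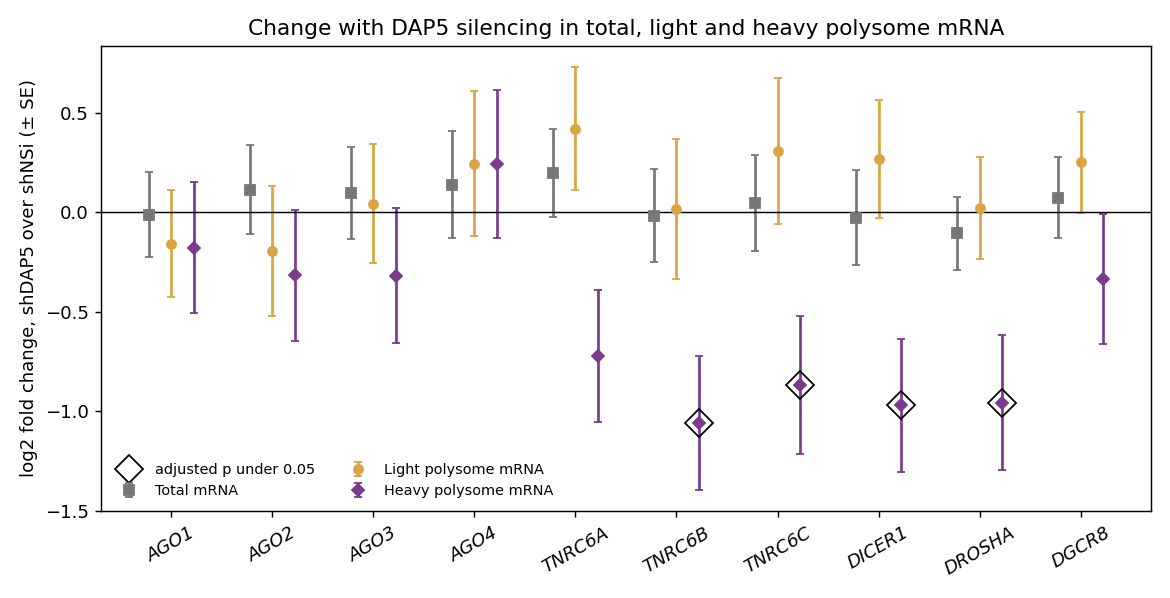
Log2 fold change of shDAP5 over shNSi (vertical axis, error bars are SE) of the 10 mRNAs in total (grey squares), light (yellow circles) and heavy polysome mRNA (purple diamonds), with open diamonds at an adjusted p under 0.05. Total and light changes lie between −0.20 and 0.42, and the heavy changes of the 3 TNRC6 genes, DICER1 and DROSHA lie between −0.72 and −1.06.

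Heavy translation efficiency, the heavy polysome mRNA relative to the total mRNA of the same culture, was tested as the interaction of fraction and short hairpin RNA. Of the 10 members only TNRC6B was called, and it fell, with a change of −1.10 (SE 0.37, adjusted p = 0.0433), against 13.1% of 15374 genes called and 8.23% called lower. Its log2 ratio of heavy to total mRNA was 0.89 and 1.85 in the shNSi cultures and 0.51 and −0.26 in the shDAP5 cultures. TNRC6A (−1.01, adjusted p = 0.0636), TNRC6C (−0.99, adjusted p = 0.0746), DICER1 (−1.05, adjusted p = 0.0627) and DROSHA (−0.86, adjusted p = 0.0765) had changes of like size that missed the threshold. These 4 and TNRC6B had an unadjusted p under 0.05, as did 29.7% of all genes. With a culture left out the sizes ranged widely, from −1.77 to −0.34 for DICER1, −1.65 to −0.39 for TNRC6A, −1.66 to −0.34 for TNRC6C, −1.61 to −0.62 for TNRC6B and −1.09 to −0.66 for DROSHA.

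DICER1 had log2 ratios of 0.85 and 1.16 in shNSi and of 0.55 and −0.94 in shDAP5. DROSHA had 1.03 and 1.42 in shNSi and 0.46 and −0.03 in shDAP5. For both enzymes the shNSi mRNA was richer in heavy polysomes than in total mRNA in both cultures, and in shDAP5 culture 2 it was not. TNRC6A had 0.39 and 0.88 in shNSi against 0.13 and −1.19 in shDAP5, and TNRC6C had 0.62 and 0.98 against 0.35 and −1.03. DGCR8 was the member with the closest cultures, at 0.74 and 0.79 in shNSi and 0.19 and 0.20 in shDAP5, and its change of −0.42 did not pass the test (adjusted p = 0.410). The Argonautes ran from −0.52 in AGO2 to 0.06 in AGO4 and none passed. Over the 10 members the median was −0.69 against 0.09 for all genes, and 7 had both shDAP5 ratios below both shNSi ratios, against 33.8% of genes (59.3% did not overlap in either direction). Without shDAP5 culture 2, without shNSi culture 1 or without shNSi culture 2 no member was called, and without shDAP5 culture 1 there were 5, with 28.5% of all genes called. The TNRC6B call was also lost with limma (2.65% of all genes called), with the replicate block (4.48%) and without a term for each culture (0%).

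In light polysomes no member was called, and neither was any of the 15529 genes tested (0%, with 8.56% at an unadjusted p under 0.05 and none of the members), and DESeq2 and limma called 0 members too. The changes ran from −0.20 to 0.42 with a median of 0.14. TNRC6A had 45.8 and 26.3 CPM in the shNSi light pools and 47.3 and 49.5 CPM in the shDAP5 light pools. DGCR8 had 25.0 and 27.3 CPM in shNSi and 30.4 and 31.99 CPM in shDAP5. These were the only members whose cultures did not overlap, both higher in shDAP5, which was so for 21.6% of all genes (41.5% did not overlap in either direction). Without shNSi culture 1 the test called 3 members, higher, and 28.9% of all genes. The shDAP5 light libraries carry the code of the shNSi moderate pool, and with that pool as control no member was called, 25.5% of all genes were, and the median over the members turned to −0.15. Light translation efficiency ran from −0.26 to 0.31, with no call among the members or among all genes (0%, with 5.22% at an unadjusted p under 0.05 and none of the members), nor of the members by DESeq2 or limma. With the shNSi moderate pool as control the median was −0.21 and 27.5% of all genes were called, with no member.

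The ratio of heavy to light polysome mRNA showed the position of each mRNA within the polysomes of a culture. All 10 interactions were below 0, and none passed the test, against 6.75% of 15878 genes called and 5.21% called lower. Those of the Argonautes were the smaller ones, and the number below 0 was 7 without shNSi culture 2 or without shDAP5 culture 2, 8 by library size and 6 with offsets for coding length. With the shNSi moderate pool in place of the heavy pool 3 of 10 were below 0, the median turned to 0.15, and no member and 0% of genes were called. With the moderate pool, whose code the shDAP5 light libraries carry, in place of the light pool, 3 members and 23.9% of genes were called, and the median was −0.46. At an unadjusted p under 0.05 there were 5 members and 25.1% of genes in the comparison with the light pool, and DESeq2 called 3 members and 12.1% of genes and limma 0 members and 0% of genes. The median over the members was −0.87 against 0.05 for all genes. In 7 members both shDAP5 ratios lay below both shNSi ratios, as in 31.9% of genes (54.3% in either direction). TNRC6A had log2 ratios of 0.26 and 1.08 in the shNSi cultures and of −0.27 and −1.31 in the shDAP5 cultures, so that after TMM scaling its level was higher in heavy than in light polysomes in both control cultures and lower in both DAP5-silenced cultures (interaction −1.36, adjusted p = 0.0604). By library size alone the ratios were −0.32 and 0.52 in shNSi and −0.41 and −1.60 in shDAP5, and the sign in shNSi culture 1 turned. DICER1 went from 1.38 and 1.65 to 0.75 and −0.75 (−1.42, adjusted p = 0.0582). TNRC6C went from 1.08 and 1.86 to 0.82 and −0.78 (−1.34, adjusted p = 0.0895). TNRC6B and DROSHA stayed above 0 in all 4 cultures. TNRC6B had 1.79 and 3.0 in shNSi and 1.58 and 0.56 in shDAP5 (−1.22, adjusted p = 0.107), and DROSHA had 2.17 and 2.48 against 1.40 and 0.91 (−1.07, adjusted p = 0.109). DGCR8 had 1.48 and 1.12 against 0.49 and 0.56 (−0.68, adjusted p = 0.288). With a culture left out, the interactions ranged from −2.20 to −0.67 for DICER1, −2.18 to −0.55 for TNRC6C and −1.91 to −0.83 for TNRC6A. They ranged from −1.82 to −0.61 for TNRC6B, −1.35 to −0.81 for DROSHA and −0.85 to −0.48 for DGCR8. Leaving out shNSi culture 1 gave 5 calls, with 17.8% of all genes called, and leaving out shDAP5 culture 1 gave 3, with 4.79%.

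**Figure D3:**
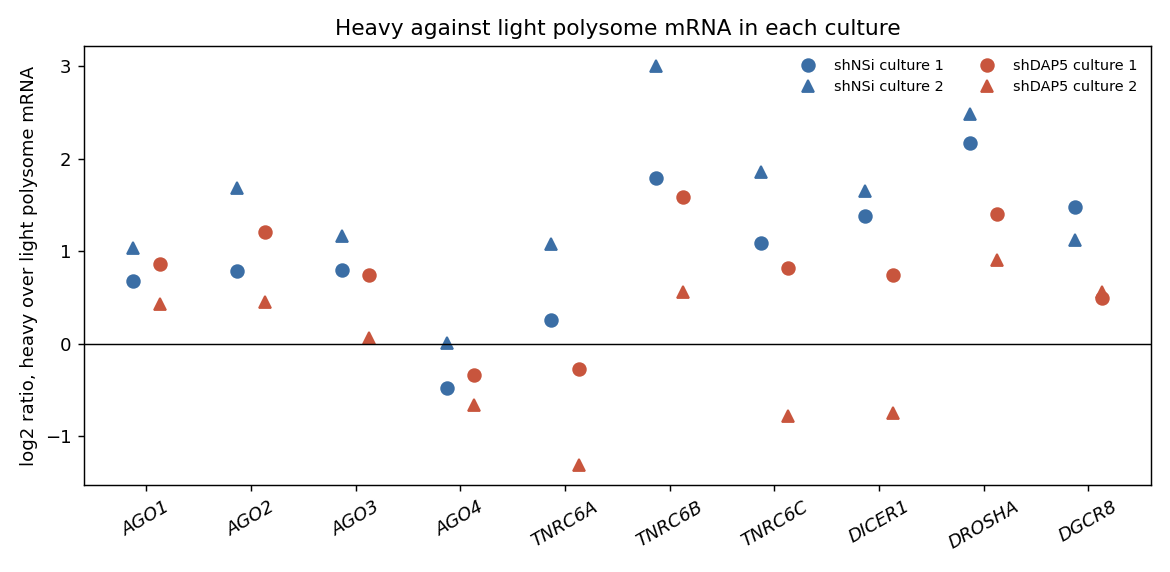
Log2 ratio of heavy to light polysome mRNA (vertical axis) in each culture for the 10 mRNAs, with shNSi in blue, shDAP5 in red, culture 1 as circles and culture 2 as triangles. TNRC6A is the gene with both shNSi points above 0 and both shDAP5 points below 0 (by library size alone shNSi culture 1 is at −0.32), and DICER1 and TNRC6C fall below 0 in shDAP5 culture 2.

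In the control line most of these mRNAs had a higher level, relative to other genes of the same library, in heavy than in light polysomes. Of the 10, 9 were higher in shNSi heavy than in shNSi light polysomes in a fit of all 14 libraries, against 65.2% of 16235 genes called and 34.7% called higher, and the median was 1.27 against −0.03 for all genes. Among genes with coding sequences of the members' lengths higher levels in heavy polysomes were the rule. They were called higher for 61.6% of genes above 2000 and up to 2500 nucleotides (median 1.03), 71.8% of those up to 4000 (median 1.35) and 78% of those up to 6000 (median 1.52). TNRC6B (2.40, adjusted p = 1.15e-06) and DROSHA (2.31, adjusted p = 4.73e-07) had the steepest difference, followed by DICER1 (1.52, adjusted p = 0.000131), TNRC6C (1.45, adjusted p = 0.000359), DGCR8 (1.30, adjusted p = 4.00e-05) and AGO2 (1.24, adjusted p = 0.000357). AGO3 (0.98), AGO1 (0.86, adjusted p = 0.00223) and TNRC6A (0.66, adjusted p = 0.0420) followed, and AGO4 had −0.24 (adjusted p = 0.370). With a culture left out, AGO2 ranged from 0.66 to 1.58, TNRC6C from 0.96 to 1.76 and TNRC6B from 1.67 to 2.90. The range was narrower for DROSHA (2.04 to 2.38) and DICER1 (1.26 to 1.55). By library size alone 6 were called higher and 1 lower, with 69.1% of all genes called, AGO4 at −0.81 (adjusted p = 0.00789) and TNRC6A at 0.10 (adjusted p = 0.774). Without shNSi culture 2 TNRC6A was 0.13, and the count was 4 (55.4% of all genes), those of DGCR8, DICER1, DROSHA and TNRC6B.

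Between shNSi moderate and light only AGO1 was called, higher, against 32.3% of genes called and 16% called higher, with 33.3 and 30.2 CPM in the moderate and 22.5 and 19.6 CPM in the light libraries. That call was lost without shNSi culture 2 or without either shDAP5 culture. Between heavy and moderate, 8 were called, all higher in heavy, against 37.2% of genes called and 24.1% called higher. Without a term for each culture 6 were called, with 26% of all genes. The differences were 2.06 for TNRC6B, 1.68 for DROSHA, 1.67 for TNRC6C and 1.36 for DICER1, and the counts were 3 without shNSi culture 1 (17.5% of all genes) and 4 without shNSi culture 2 (36.2%). DICER1 had 26.9 and 20.8 CPM in the moderate and 25.3 and 17.8 CPM in the light libraries of shNSi, close to each other and far below its heavy level. TNRC6C was at 8.02 and 7.95 CPM in the moderate pool, below its shNSi total level of 16.4 and 12.9 CPM.

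In the shDAP5 line 5 members differed between heavy and light polysomes, against 47.1% of genes (24.6% higher and 22.6% lower), and the median was 0.47. AGO1, AGO2, TNRC6B (1.09, adjusted p = 0.00485) and DROSHA (1.16, adjusted p = 0.00120) were higher in heavy polysomes, and TNRC6A was lower (−0.74, adjusted p = 0.0358). The TNRC6A call was lost without shDAP5 culture 2 (−0.26, adjusted p = 0.605) and without the replicate block (−0.71, adjusted p = 0.114), and without shDAP5 culture 1 the value was −1.31. DICER1 had 0.06 (adjusted p = 0.871), a value that rests on opposite cultures: it was 0.76 without shDAP5 culture 2 and −0.75 without shDAP5 culture 1. Leaving out shDAP5 culture 1 left 1 call (19.8% of all genes) and leaving out culture 2 left 3 (19.4%). The shNSi and shDAP5 values come from separate contrasts, and the test of their difference is the interaction given above.

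The changes of the longer members lay near those of other genes with coding sequences of like length. Over 12477 genes with a known length, the change in heavy translation efficiency and the coding length had a Spearman correlation of −0.71 across genes, which are not independent and share the libraries. Genes with coding sequences above 4000 and up to 6000 nucleotides, the class of TNRC6A, TNRC6B, TNRC6C, DICER1 and DROSHA, had a median of −0.89 (567 genes, 33.7% called lower). The 5 members had between −0.86 and −1.10. Genes above 2500 and up to 4000 nucleotides, the class of the 4 Argonautes, had a median of −0.72 (1646 genes), below each of the Argonautes, whose changes ran from −0.52 to 0.06. DGCR8, at −0.42, lay near the median of −0.46 of its class above 2000 and up to 2500. When an offset for coding length was fitted in each library, no member was called. The changes were then −0.25 for TNRC6B, −0.17 for DICER1, −0.14 for TNRC6C, −0.13 for TNRC6A, −0.07 for DROSHA, 0.08 for DGCR8, 0.05 for AGO2, 0.11 for AGO3, 0.38 for AGO1 and 0.62 for AGO4. The part of transcript length in the difference between the lines was not tested beyond this.

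**Figure D4:**
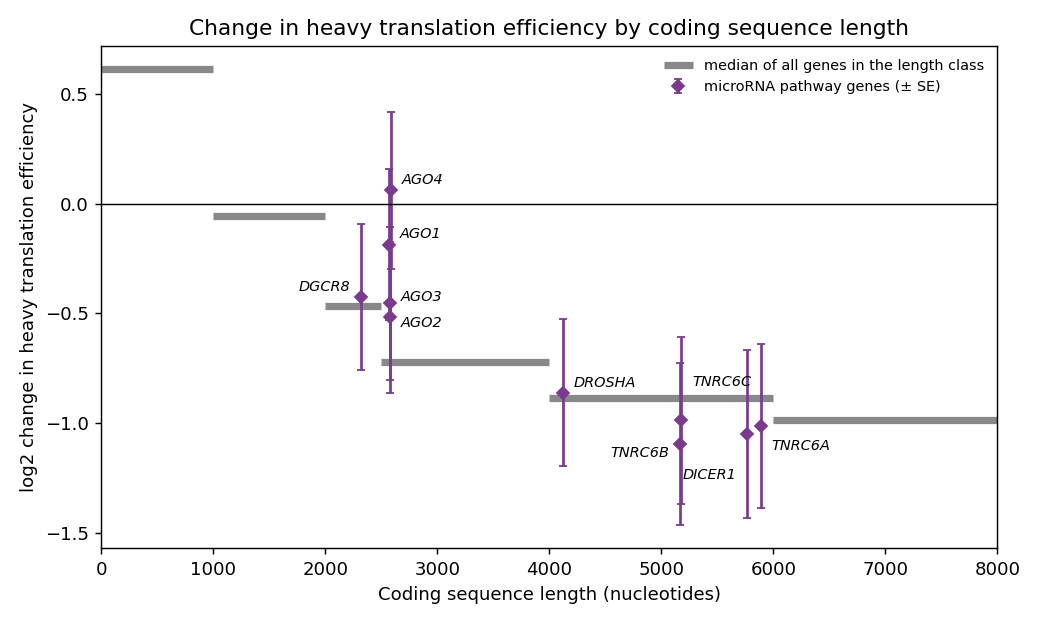
Change in heavy translation efficiency (log2, vertical axis, error bars are SE) against coding sequence length in nucleotides for the 10 members, with grey bars at the median of all genes in each length class (the last class is open-ended and drawn to the axis limit). The 5 long members lie near the bar at −0.89, and the Argonautes lie above theirs at −0.72.

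The direction of the heavy changes depended on the control pool. The shNSi heavy libraries held fewer genes with counts, had scaling factors of 0.763 and 0.702 against 1.04 and 0.932 for shDAP5 heavy, and stood apart from the other libraries in this respect. Scaled by library size alone, the median change of all genes in heavy polysomes moved from 0.09 to 0.34, no member was called, and TNRC6B (−0.78), DICER1 (−0.70), DROSHA (−0.70) and TNRC6C (−0.60) stayed below 0 while AGO1 turned to 0.07. With the shNSi moderate pool in place of the shNSi heavy pool no member was called in heavy translation efficiency, and TNRC6B (0.77), DROSHA (0.68), TNRC6C (0.51), DGCR8 (0.33) and DICER1 (0.14) turned above 0, whereas TNRC6A stayed at −0.14. With heavy and moderate counts of each shNSi culture added up, the changes were −0.50 for TNRC6A, −0.41 for DICER1, −0.26 for TNRC6B, −0.25 for TNRC6C and −0.12 for DROSHA, again with no call. How the gradient was divided between heavy and moderate in the shNSi cultures, and whether the shDAP5 heavy pool covers the same part, cannot be told apart from the effect of the hairpin in these libraries.

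**Figure D5:**
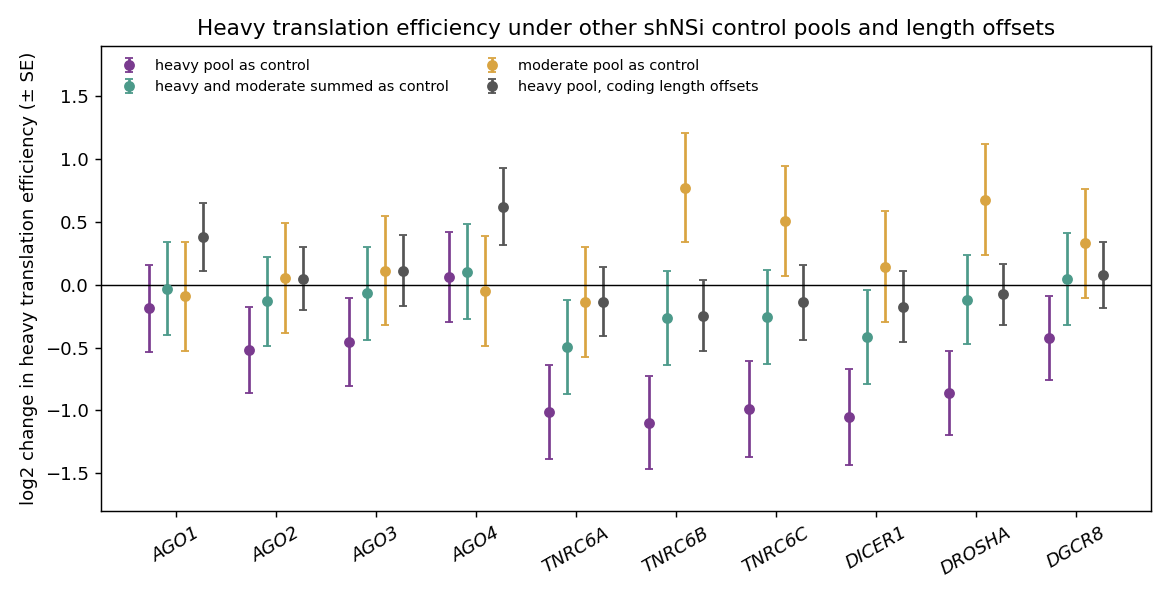
Change in heavy translation efficiency (log2, vertical axis, error bars are SE) of the 10 mRNAs with the shNSi heavy pool, the heavy and moderate pools summed, or the moderate pool as control, and with the heavy pool and offsets for coding length. TNRC6B moves from −1.10 to −0.26, 0.77 and −0.25 under these in turn.

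Other genes of the pathway were described by list, and the background for heavy translation efficiency is the 13.1% of genes given above, with 8.23% called lower. Of 21 genes for microRNA processing and export, 20 were tested, 8 fell and none rose, with a median of −0.81. XPO5, which exports precursor hairpins from the nucleus, had log2 ratios of 1.26 ± 0.461 (SD, n = 2) in shNSi and −0.28 ± 0.402 in shDAP5 (change −1.39, adjusted p = 0.00993), and NCBP1, the larger subunit of the nuclear cap-binding complex, changed by −1.37 (adjusted p = 0.0104). Of 24 Argonaute partners 23 were tested and 11 fell with none higher (median −0.79). Among them were XRN2, a nuclear 5′ to 3′ exonuclease (−1.52, adjusted p = 0.00846), and IPO8, a nuclear import receptor that binds Argonautes (−1.45, adjusted p = 0.00868). Of 31 genes for deadenylation and decay, on which TNRC6 proteins act, 4 fell and none rose (median −0.39), beside 8.23% of all genes called lower. They included EDC4, a scaffold of the decapping complex (−1.47, adjusted p = 0.00837), and XRN1, the cytoplasmic 5′ to 3′ exonuclease (−1.30, adjusted p = 0.0369, between −2.07 and −0.55 with a culture left out). In total mRNA no gene of the 3 lists was called. The genes named here have coding sequences from 2370 nucleotides (NCBP1) to 5118 (XRN1). Of all genes above 2000 and up to 2500 nucleotides 17.7% were called lower in heavy translation efficiency. The share was 29.1% of those up to 4000 and 33.7% of those up to 6000.

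Transcripts named as microRNA hosts have symbols of the form MIR-HG and are mostly non-coding. Of 53 in the table, 20 were tested in heavy translation efficiency, 2 rose and none fell, with 11 changes above and 9 below 0 and a median of 0.40, beside 4.85% of all genes called higher. MIR22HG had log2 ratios of heavy to total mRNA of −1.40 ± 0.0736 in shNSi and −0.48 ± 0.203 in shDAP5 (change 1.07, adjusted p = 0.0391), and MIR762HG had −2.12 ± 0.334 and −0.41 ± 0.00301 (change 1.81, adjusted p = 0.0344). Both were poorer in heavy polysomes than in total mRNA in both lines. Without shDAP5 culture 2, without shNSi culture 2, or with scaling by library size alone, no gene of the 4 lists was called. Without shNSi culture 1 the calls were 2 for processing and export, 3 for Argonaute partners, 3 for decay and 0 for hosts (3.59% of all genes), and with length offsets 2, 3 and 0 for the protein-coding lists (3.8%). Without shDAP5 culture 1, where 28.5% of all genes were called, the lists held calls in both directions except for the partners, with 13 lower. There were then 11 lower and 1 higher for processing and export, 10 lower and 2 higher for decay, and 1 lower and 4 higher for hosts. With at least 10 counts in every library decay had 5 lower and 2 higher (19.1% of all genes). With limma there was 1 call, in decay (2.65% of all genes), and the median of the hosts was 0.038. Without a term for each culture, or with the shNSi heavy and moderate pools summed, there was no call in the 4 lists, and with the replicate block there were 2 in each of the protein-coding lists and 0 for hosts (4.48% of all genes). DESeq2 called 10 for processing and export, 11 partners, 6 for decay and 0 hosts (13.2% of all genes), and without a filter there was 1 host (6.91%). With the shNSi moderate pool as control none was called either, and XPO5 (1.02), NCBP1 (0.83), XRN2 (1.18), IPO8 (0.56), EDC4 (0.87) and XRN1 (0.54) turned above 0.

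Across the 14 libraries AGO4 stood apart from the other members. Pearson's r of log2 CPM, a description over libraries that share cultures and fractions, was 0.96 between TNRC6B and DROSHA, 0.95 between AGO2 and AGO3, 0.94 between TNRC6C and DICER1 and 0.93 between DROSHA and DGCR8. AGO4 had its highest r with TNRC6A (0.58) and its lowest with DROSHA (−0.39). TNRC6A had higher r with TNRC6C (0.78) and DICER1 (0.76) than with AGO4. Against the mean profile of the 10, AGO3 had the highest r of the members (0.97), TNRC6A had 0.63 and AGO4 had 0.05. Each member enters that mean itself, so these r are not on a par with those of other genes. Among 9392 genes with a mean of at least 10 CPM, the profiles most like that mean were FMNL2 (0.988), RAPGEF2 (0.986), LIMCH1 (0.986), FAM208B (0.984) and MYO5A (0.983).

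Some counts may include reads of overlapping genes. The name of the deposited table carries the word rev, which may stand for reverse-strand counting and would then keep genes on opposite strands apart, but the setting is not stated. In GENCODE v29 the spans of the members, introns included, overlap other genes. The longest on the opposite strand are 21522 bases of AGO3 with AL138787.2 and 16289 and 9641 bases of TNRC6A with AC008731.1 and LINC01567, and DICER1 shares 366 with DICER1-AS1, TNRC6C 1438 with TNRC6C-AS1 and DGCR8 12 with TRMT2A. On the same strand, where counting by strand would not keep them apart, AGO2 overlaps AC067931.1 (671 bases), TNRC6C overlaps AC015804.1 (435) and RNU6-625P (107), and DICER1 and DGCR8 overlap the microRNA genes within them. How reads that match more than 1 of the related Argonaute or TNRC6 genes were assigned is not given either.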

How the data were processed

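Total, light, moderate and heavy polysome mRNA of MB-231-shNSi and MB-231-shDAP5 cultures was sequenced as single reads. The authors deposited raw counts per gene symbol without normalization, and all columns were matched to samples by title (0 were not). The submitters' processing notes name STAR 2.6.0a, hg19 and limma, and the name of the deposited table carries the words featurecounts and rev, which may stand for reverse-strand counting. The annotation and the other counting settings are not given in the sources used here. Depth was 25899838 to 30795910 counts per library.

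Counts were analysed in R 4.3.3 with edgeR 4.0.16 (filterByExpr, TMM, robust quasi-likelihood test, Benjamini-Hochberg adjustment over all genes tested, threshold 0.05). Each mRNA comparison used its 4 libraries and each interaction 8 with a term per culture. Comparisons between pools of a line used all 14, with a term per culture as their replicate block. CPM and overlaps between the lines used TMM factors over all 14 libraries. Each fit took factors from its own libraries, so printed levels and changes differ in scaling. With all 14 libraries in 1 fit, the members' median in heavy mRNA was −0.71 (−0.53 as reported), with 4 called (23.7% of all genes). Printed log2 ratios used CPM without an offset. Overlaps between the lines, correlations and the ratios by library size alone used log2(CPM + 0.5). The scripts were tested on simulated data. Alternatives were DESeq2 1.42.0, limma 3.58.1 on quantile-normalized log2(CPM + 1), other filters and scaling, blocks, length offsets (a spline with 4 degrees of freedom), other control pools and leaving out each culture. The study describes its data sets as independently performed, with 2 cultures of each line.

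The members and the gene lists were chosen with earlier results of these data known. Named were all 10 members, EIF4G2, up to 2 lowest and 2 highest called genes of each list in heavy translation efficiency, and the 5 profiles most like the mean of the members.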

Additional observations from a re-analysis of the deposited data

Results flagged for a closer look

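The ratio of heavy to light polysome mRNA of TNRC6A differed in sign between the lines, positive in both shNSi cultures and negative in both shDAP5 cultures after TMM scaling. By library size alone it was −0.32 and 0.52 in shNSi and −0.41 and −1.60 in shDAP5, so the contrast of signs did not hold under that scaling. Nor did it hold with the shNSi moderate pool in place of the heavy pool, where the shNSi ratios to light were −0.66 and −0.09. The interaction was −1.36 on the log2 scale (adjusted p = 0.0604 in edgeR's quasi-likelihood test), which did not pass the threshold. It stayed below 0 with each culture left out in turn, between −1.91 and −0.83, and was −0.23 with offsets for coding length.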

How the results depend on the processing

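The number of members called in heavy polysome mRNA, 4 as reported, was 0 with library size without TMM (25.5% of all genes called), with length offsets (11.7%), and with the shNSi moderate pool (0.344%) or the summed pools (2.77%) as control (0 to 4 with each culture left out). In heavy translation efficiency it was 1 as reported (13.1% of all genes), 2 with DESeq2 (13.2%), 3 without a filter (6.91%), 3 with at least 10 counts in every library (19.1%), and 0 with limma (2.65%), the replicate block (4.48%), length offsets (3.8%), and library size, no term for each culture, the moderate pool or the summed pools (0% each), with 0 to 5 when a culture was left out. For heavy over light, 0 as reported, beside 6.75% of all genes, it was 3 with DESeq2 (12.1%), 3 without a filter (5.31%), 1 with at least 10 counts (11.1%), 3 with the moderate pool in place of light (23.9%) and 4 with light and moderate summed (15.6%), with 0 to 5 when a culture was left out. Light polysomes gave 0 to 3 with a culture left out. For shNSi moderate against light, 1 as reported, DESeq2 gave 2 (32.9% of all genes), and library size (29%), no filter (16.7%), at least 10 counts (34.5%) and no replicate block (13.3%) gave 0 (0 to 1 with a culture left out). Library size gave 4 for shNSi heavy against moderate (47.2%; 3 to 8 with a culture left out), shNSi heavy against light gave 4 to 9, and shDAP5 heavy against light gave 3 with no replicate block (31.5%; 1 to 6 with a culture left out). The lone culture of an arm was then assumed to vary like the others. The cause of these shifts was not tested.

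Whether cultures of the lines that share a replicate number were run together is not stated in the labels. Departures from the group mean in cultures with 1 number were correlated over 16235 genes. The r was −0.11 in total, 0.05 in light and 0.06 in heavy mRNA and −0.27 in the heavy to total ratio. With 2 cultures a line and genes that are not independent, these values cannot decide it. With the replicate block 5 members were called in heavy mRNA, with 33% of all genes, and none in total, light, heavy or light translation efficiency or heavy over light. With the numbers crossed between the lines, chosen after seeing the data, there were 0 calls in total mRNA (0.474% of all genes), 5 in heavy translation efficiency (26.9%) and 4 in heavy over light (14.1%).

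For heavy polysome mRNA, heavy translation efficiency and heavy over light, the directions of members turned as follows. In heavy polysome mRNA AGO1 was 0.073 by library size. With length offsets AGO1 was 0.42, AGO2 0.26, AGO3 0.26, TNRC6A 0.15 and DGCR8 0.19. With the moderate pool as control AGO2 was 0.23, AGO3 0.23, TNRC6A 0.15, TNRC6B 0.82, TNRC6C 0.62, DICER1 0.21, DROSHA 0.53 and DGCR8 0.41, and with summed pools DGCR8 was 0.026. In heavy translation efficiency AGO1 was 0.027 by library size, AGO4 was −0.0030 with DESeq2 and −0.022 with limma, and length offsets gave AGO1 0.38, AGO2 0.049, AGO3 0.11 and DGCR8 0.076. The moderate pool gave AGO2 0.053, AGO3 0.11, AGO4 −0.0499, TNRC6B 0.77, TNRC6C 0.51, DICER1 0.14, DROSHA 0.68, DGCR8 0.33, XRN2 1.18, IPO8 0.56, EDC4 0.87, XRN1 0.54, XPO5 1.02 and NCBP1 0.83, and summed pools gave DGCR8 0.045. In heavy over light the moderate pool in place of heavy gave TNRC6B 0.72, TNRC6C 0.22, DROSHA 0.54, DGCR8 0.14, AGO1 0.050, AGO2 0.33 and AGO3 0.15. Library size gave AGO1 0.13 and AGO4 0.074, limma gave AGO1 0.032, and length offsets gave AGO1 0.64, AGO2 0.44, AGO3 0.27 and AGO4 0.59. Summed heavy pools gave AGO1 0.040 and AGO2 0.075, the moderate pool in place of light gave AGO1 0.48 and AGO2 0.19, and summed light pools gave AGO1 0.14. DICER1 in shDAP5 heavy against light was −0.15 by library size and −0.053 with at least 10 counts, and TNRC6C there was −0.14 and −0.041. With a culture left out, the ranges that crossed 0 were −0.088 to 0.46 for AGO4 in heavy mRNA, −0.45 to 0.037 for AGO1 and −0.17 to 0.28 for AGO4 in heavy translation efficiency, and −0.36 to 0.11 for AGO1, −0.74 to 0.15 for AGO2 and −0.40 to 0.084 for AGO4 in heavy over light. For shDAP5 heavy against light they were −0.75 to 0.76 for DICER1 and −0.77 to 0.83 for TNRC6C. Members below 0 then ran from 1 to 10 of 10 in total mRNA (4 as reported), from 1 to 7 in light mRNA (2), from 2 to 5 in light translation efficiency (3) and from 7 to 10 in heavy over light (10).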
